A study of Homo sapiens with 9 samples.

Results

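The genes described here are 44 genes of homologous recombination and the Fanconi anemia pathway, taken as a named list and matched by symbol to the 64253 gene identifiers of the count files. Of these, 43 had enough reads to be tested, among 16561 tested genes in all. The cells were IMR90, a human fetal lung fibroblast line with a limited life span in culture, kept at 2% oxygen and taken at population doubling 30. RNA of 9 libraries in 3 groups of 3 was sequenced after ribosomal RNA removal. All cells received 2 rounds of pLKO.1 lentivirus, 24 hours apart, and were then selected for 7 days with 3 ug/mL puromycin. Control cells carried vector without a hairpin, which the sample labels call empty and the treatment protocol calls a GFP vector. The shRRM2 cells carried a hairpin RNA that targets RRM2, a subunit of the ribonucleotide reductase that makes DNA precursors, followed by the vector, and the labels place them under senescence. The shRRM2/shp16 cells carried the RRM2 hairpin followed by one that targets p16, a product of CDKN2A that holds cells in G1, and the labels place them under senescence bypass. There was no group with only the p16 hairpin, so cells with it are compared only in the presence of the RRM2 hairpin. Each hairpin is a single construct in a single cell line. The labels do not say whether libraries a, b and c of a group came from separate cultures, so p-values measure the spread between these libraries, which may be technical.

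Homologous recombination repairs DNA double-strand breaks and restarts broken replication forks by copying the sister chromatid. The break is cut back to single-stranded DNA, BRCA1 and its partners bring in BRCA2 and PALB2, the end pairs with the sister, and the joined molecules are later dissolved or cut apart. The Fanconi pathway removes crosslinks between the strands: a core complex attaches ubiquitin to FANCD2 and FANCI, and these direct nucleases to the lesion. Both are used mainly by cells in S and G2 phase, and many of the genes are transcribed most strongly there. In RNA from a whole culture, fewer cells in these phases and less RNA per cell cannot be told apart.

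The gene rows held 15770895 to 24873291 counts per library. RRM2 stood at 481, 491 and 484 CPM (read counts put on 1 common library size with TMM factors) in the control libraries, 60.0, 63.2 and 63.2 in shRRM2 and 181, 175 and 176 in shRRM2/shp16. It fell to 12.8% of the control level in shRRM2, and the shRRM2/shp16 libraries held 2.85 times the shRRM2 level, so the groups that carry the RRM2 hairpin differed in RRM2 itself. CDKN2A stood at 5.95, 6.15 and 5.96 CPM in control, 6.79, 6.75 and 5.97 in shRRM2 and 4.33, 3.93 and 4.57 in shRRM2/shp16, a count that joins the p16 and ARF transcripts. It fell from shRRM2 to shRRM2/shp16 (log2 fold change -0.60 ± 0.13 SE, adjusted p = 7.01e-05) and did not pass the test between shRRM2 and control (adjusted p = 0.431, edgeR quasi-likelihood test). All 8 fibroblast markers were present, with summed levels of 26840 to 27700 CPM in control, 26260 to 27050 in shRRM2 and 22100 to 22700 in shRRM2/shp16. The summed levels of 4 epithelial, 4 endothelial and 4 blood cell markers reached at most 2.15, 5.38 and 0.215 CPM. The share of uniquely aligned reads that the counting assigned to no feature was 17.6% to 18.9% in control and 27.7% to 28.8% in shRRM2. In shRRM2/shp16 it was 23.5% to 24.4%. Where in the genome these reads lie is not given, and their part in the results was not tested.

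Stretches of promoter are shown for 4 of the 6 members with an E2F word, for UBE2T, which fell most among the members with a word of the mitotic CHR element, and for ATM and RAD50, the members that rose. E2F factors activate S-phase genes, and the CHR and CCAAT words are common in promoters of genes used late in the cell cycle. Windows of 300 bases around the RefSeq gene starts of GRCh38.p14 were searched on both strands for the E2F words TTTCCCGC, TTTGGCGC, TTTCGCGC and TTTGCCGC, for TTTGAA (CHR) and for CCAAT. A window counted once however many matches it held, and matches may overlap. Capitals mark the matches in the stretches, which are written 5′ to 3′ on the strand of the gene.
FANCA: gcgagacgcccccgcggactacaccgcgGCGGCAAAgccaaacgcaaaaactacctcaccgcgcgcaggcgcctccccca
FANCC: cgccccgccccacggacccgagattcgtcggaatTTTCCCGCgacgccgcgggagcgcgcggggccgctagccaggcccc
FANCD2: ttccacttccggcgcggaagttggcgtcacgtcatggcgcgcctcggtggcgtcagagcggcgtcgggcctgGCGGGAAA
RMI1: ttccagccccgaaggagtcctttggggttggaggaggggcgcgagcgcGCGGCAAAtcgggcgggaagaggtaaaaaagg
UBE2T: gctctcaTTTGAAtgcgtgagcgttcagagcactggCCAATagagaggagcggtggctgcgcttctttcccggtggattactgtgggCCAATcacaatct
ATM: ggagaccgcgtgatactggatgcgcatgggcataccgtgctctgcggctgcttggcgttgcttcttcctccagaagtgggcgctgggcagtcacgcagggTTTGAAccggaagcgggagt
RAD50: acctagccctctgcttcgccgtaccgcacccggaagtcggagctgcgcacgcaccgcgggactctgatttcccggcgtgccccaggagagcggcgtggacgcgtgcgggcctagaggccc
The stretches lie at chr16:89816768-89816847 (minus strand, FANCA), chr9:95317710-95317789 (minus, FANCC), chr3:10026363-10026442 (plus, FANCD2), chr9:83980725-83980804 (plus, RMI1), chr1:202341997-202342096 (minus, UBE2T), chr11:108222947-108223066 (plus, ATM) and chr5:132556857-132556976 (plus, RAD50). The FANCC stretch holds an E2F word as spelled, and those of FANCA, FANCD2 and RMI1 hold one in the opposite direction. In FANCD2 the word ends 6 bases past the start site. In the ATM stretch the marked word is TTTGAA, and the RAD50 stretch holds none of the words.

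Windows were found for 38 of the 44 members, and RAD54B, FANCI, NBN, DNA2, RMI2 and WRN were not among them. An E2F word was in 6 of the 51 member windows (11.8%) and in 3.31% of the 35116 windows of all genes. TTTGAA was in 11.8% of member windows and 15.2% of all, and CCAAT in 47.1% of member windows and 34.6% of all. The members with an E2F word were EXO1, FANCA, FANCC, FANCD2, RMI1 and XRCC2. In shRRM2 against control, 6 of these 6 were lower, with a median log2 fold change of -0.75. Of the 31 tested members with a window and no such word, 26 fell and 2 rose (median -0.56). Among all tested members 36 of 43 were lower, beside 31.8% of all tested genes. For CCAAT the medians were -0.56 in 18 tested members with the word and -0.57 in 19 without it. For TTTGAA they were -0.55 in 5 tested members with the word (4 lower and 1 higher) and -0.57 in 32 without it (28 lower and 1 higher). These matches describe the letters of the windows and were not tested.

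The first comparison, shRRM2 against control, asks how the repair genes stand in cells depleted of RRM2. Most of them fell: 36 of the 43 tested members were lower and 2 were higher, by edgeR's quasi-likelihood test at an adjusted p of 0.05. Among all tested genes 31.8% were lower and 29.0% higher in the same comparison. The median log2 fold change of the members was -0.57, beside 0.00 over all tested genes. The members that changed by at least 2-fold numbered 7, and all of these were lower (EME1, UBE2T, FANCD2, FANCI, FANCG, XRCC3 and BLM), where 10.1% of all tested genes changed as much in either direction (540 lower and 1127 higher). ATM and RAD50 were higher, and PALB2, FANCM, TP53BP1, RMI2 and WRN did not pass the threshold. Under upper-quartile scaling, which moves the median of all genes by 0.11 on the log2 scale, TP53BP1 and WRN were also called higher and ATR was no longer called.

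The second comparison, shRRM2/shp16 against shRRM2, sets cells with the added p16 hairpin beside cells without it. What the added hairpin changed cannot be told apart from the higher RRM2 level of shRRM2/shp16. Of the 43 tested members 12 were higher (27.9%) and 19 lower (44.2%), beside 31.9% higher and 29.1% lower among all tested genes. The share higher was thus near that of all genes. Scaled by library totals alone the counts were 16 higher and 16 lower. PALB2, FANCC, UBE2T and RAD50 were then also called higher, and BRCA1, RAD51AP1 and FANCM were no longer called. The median over the members was -0.05, which became 0.01 with library totals, and the median over all tested genes was 0.01. None of the 43 changed as much as 2-fold in this comparison, where 11.8% of all tested genes did. The third comparison, shRRM2/shp16 against control, shares its libraries with the first and the second. There 34 members were lower and 3 higher (ATM, RAD50 and TP53BP1), where 32.4% of all tested genes were lower and 30.0% higher. The members that changed by at least 2-fold numbered 17, all lower, where 12.6% of all tested genes changed as much in either direction (993 lower and 1092 higher). The median was -0.74 beside 0.01 over all tested genes. With library totals, which moved the median of all genes by 0.10, PALB2, NBN and ATR were also called higher and FANCL and WRN were no longer called. With upper-quartile scaling NBN was also called higher and WRN was no longer called.

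**Figure D1:**
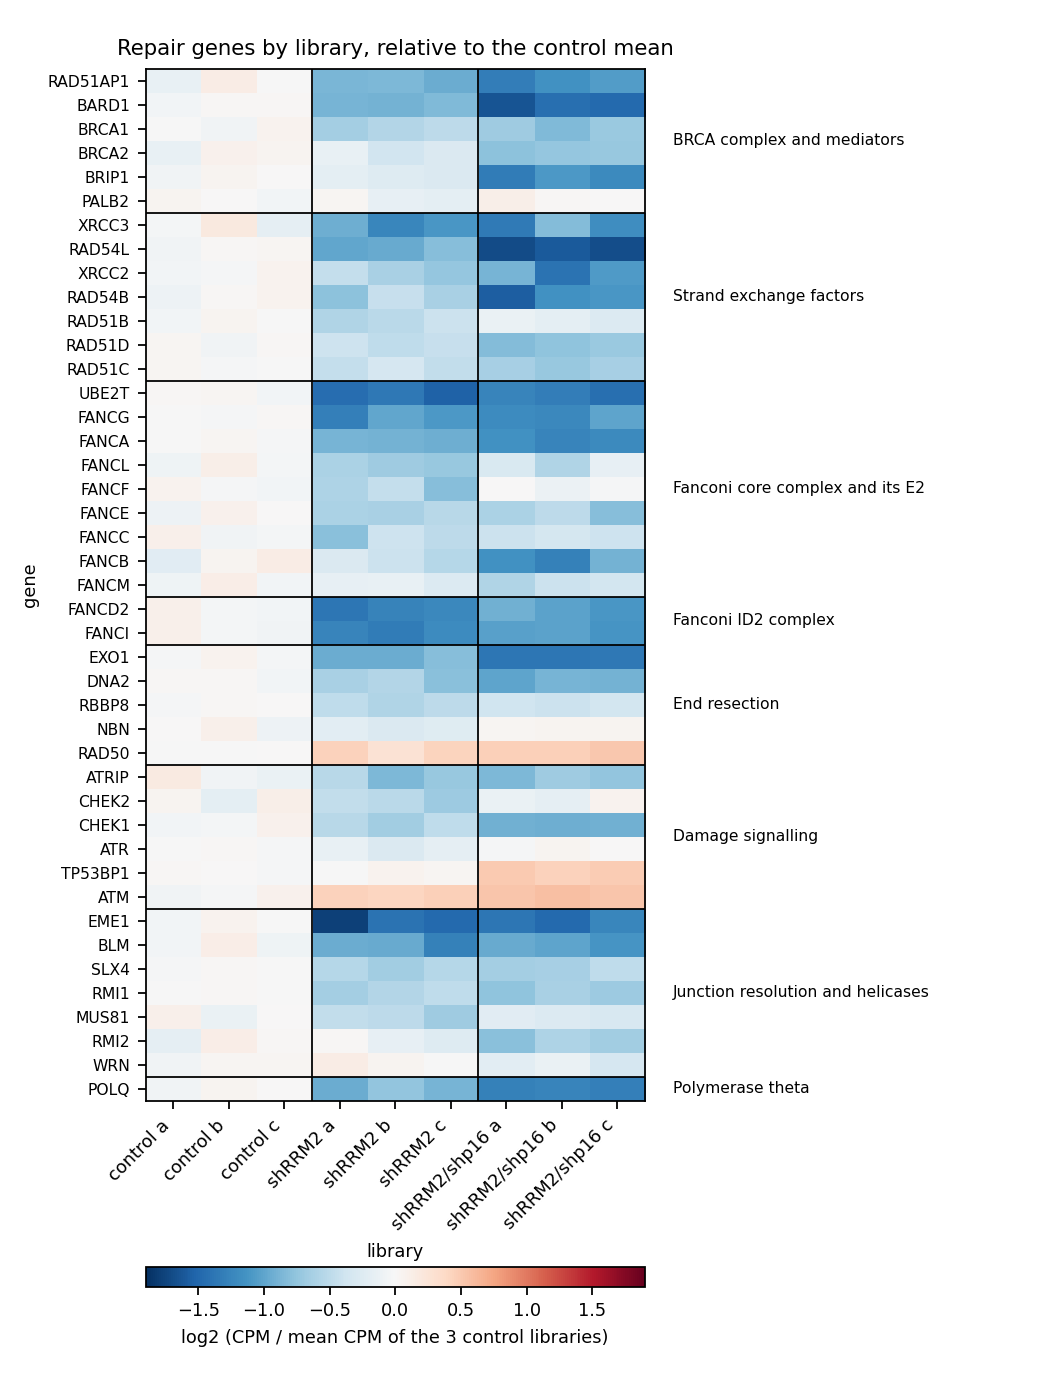
Each row is a repair gene, grouped by role, and each column a library; the colour gives log2 of the CPM over the mean CPM of the 3 control libraries. Most rows are blue in the shRRM2 columns, and ATM and RAD50 are red there. Rows such as BRIP1 and RAD54L are darker in the shRRM2/shp16 columns, while FANCF and CHEK2 are closer to white in those columns.

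**Figure D2:**
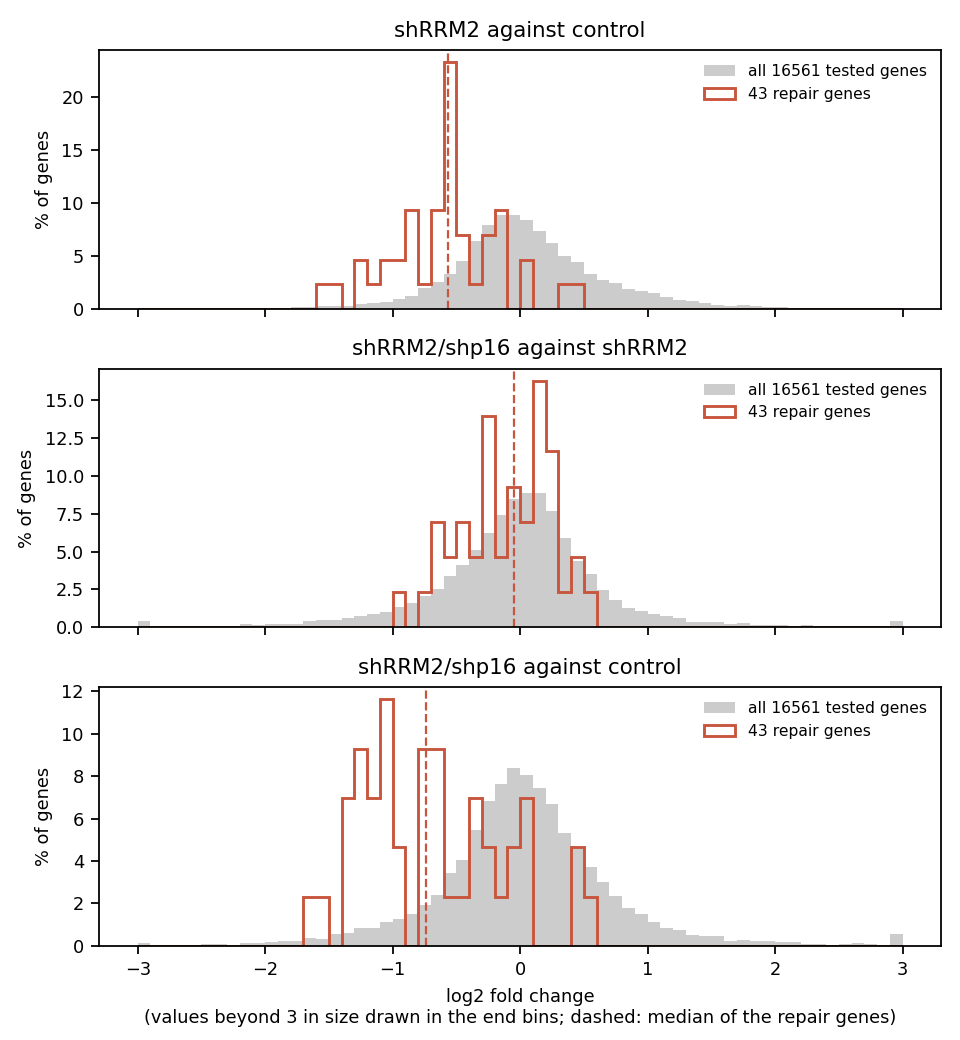
Histograms of the log2 fold changes of the 43 tested repair genes (outline) and of all 16561 tested genes (grey), as a percent of genes, in each of the 3 comparisons. The repair genes are shifted to the left in both comparisons with control, with medians (dashed) of -0.57 and -0.74, and are centred near 0 in shRRM2/shp16 against shRRM2.

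Levels per length, from the authors' deposited log2 RPKM values converted back to RPKM (read counts scaled to gene length and library size), differed widely among the members in control cells. UBE2T was highest at 43.3 RPKM, followed by FANCI at 13.3 and TP53BP1 at 10.4. RAD51B was lowest of the tested members at 0.776, below RAD54B at 1.20. MDC1, a scaffold for damage signalling, was not tested. It has 8 identifiers in the count files, the one with the most reads held 5 counts over the 9 libraries, and the single one placed on chromosome 6 by GENCODE 29 held 0. Alignments that were not unique were 40.3% to 44.9% of the entries tallied in a library, and a gene whose region is held in several copies is undercounted, so nothing is said of MDC1's level.

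BRCA1 and its mediators prepare a cut-back end for strand exchange, and 5 of these 6 members were lower in shRRM2 than in control. In that comparison 31.8% of all tested genes were lower. BRCA1 (chr17:43044295-43170245), the ubiquitin ligase and scaffold of the group, stood at 42.5, 40.5 and 44.5 CPM in control, 27.1, 28.7 and 30.0 in shRRM2 and 26.5, 23.8 and 26.0 in shRRM2/shp16. The 3 groups did not overlap, and the shRRM2/shp16 libraries were lowest. BRCA1 fell to 67.5% of control in shRRM2 (log2 fold change -0.57 ± 0.06 SE, adjusted p = 2.01e-11). Its further difference in shRRM2/shp16 was small (log2 fold change -0.17 ± 0.06 SE, adjusted p = 0.0153). That call was lost without shRRM2 replicate c (adjusted p = 0.0888) or without shRRM2/shp16 replicate b (0.143), in a range of 0.00646 to 0.502 over all alternatives.

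BARD1 (chr2:214725646-214809711), the obligate partner of BRCA1 in the ligase, had 42.2, 44.5 and 44.5 CPM in control, 23.6, 23.5 and 24.4 in shRRM2 and 14.1, 16.2 and 15.8 in shRRM2/shp16. It stepped down at both stages without overlap, with log2 fold changes of -0.87 ± 0.06 (SE) in shRRM2 and -0.63 ± 0.07 from there to shRRM2/shp16 (adjusted p = 6.88e-17 and 1.38e-10). BARD1 was not among the genes set for values in every library and was added after its values were seen.

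BRIP1 (chr17:61681266-61863521), the helicase FANCJ that binds BRCA1, had its larger log2 fold change in the second comparison, a difference between comparisons that was not tested. Its libraries held 62.6, 68.1 and 65.6 CPM in control, 57.5, 55.1 and 54.2 in shRRM2 and 26.1, 30.6 and 28.4 in shRRM2/shp16. All shRRM2 libraries lay just under the control range, and all shRRM2/shp16 libraries were far below both groups. The fall was to 85.1% of control in shRRM2 (log2 fold change -0.23 ± 0.05 SE, adjusted p = 6.23e-05), and shRRM2/shp16 held 51.1% of the shRRM2 level (log2 fold change -0.97 ± 0.06 SE, adjusted p = 1.3e-19), the lowest value of any member in that comparison. The call in shRRM2 against control was lost with limma on log2 RPKM of all 9 libraries (adjusted p = 0.112, range 1.19e-07 to 0.112). It was also lost with limma on RPKM with a pseudocount of 0.1 in 8 libraries (adjusted p = 0.0791).

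BRCA2, the mediator that acts on single-stranded DNA at the cut-back end, had 35.0, 40.5 and 39.9 CPM in control, 35.0, 29.8 and 31.8 in shRRM2 and 22.4, 23.0 and 23.3 in shRRM2/shp16. Control replicate a and shRRM2 replicate a met at the same level, so these groups overlapped, while all shRRM2/shp16 libraries were lower than both. The log2 fold changes were -0.25 ± 0.06 (SE) in shRRM2 (adjusted p = 0.000516) and -0.49 ± 0.07 from there to shRRM2/shp16 (adjusted p = 2.79e-08). The call in shRRM2 was lost with limma on the RPKM values (adjusted p range 6.11e-06 to 0.146 over all alternatives). PALB2, which joins BRCA2 to BRCA1, had 24.4, 23.6 and 22.7 CPM in control, 24.2, 21.3 and 20.8 in shRRM2 and 25.4, 23.9 and 23.8 in shRRM2/shp16. The ranges of its 3 groups overlapped and no comparison passed the threshold (adjusted p = 0.204, 0.0663 and 0.589), though the shRRM2/shp16 against shRRM2 difference was called without shRRM2 replicate a (adjusted p = 0.014, range 0.00954 to 0.254). RAD51AP1, which promotes the pairing of strands, fell from 20.4 ± 2.00 CPM (SD, n = 3) in control to 11.0 ± 0.332 in shRRM2 and was 9.04 ± 0.785 in shRRM2/shp16. Its last step lost its call without shRRM2/shp16 replicate a (adjusted p = 0.0944, range 0.00741 to 0.224).

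**Figure D3:**
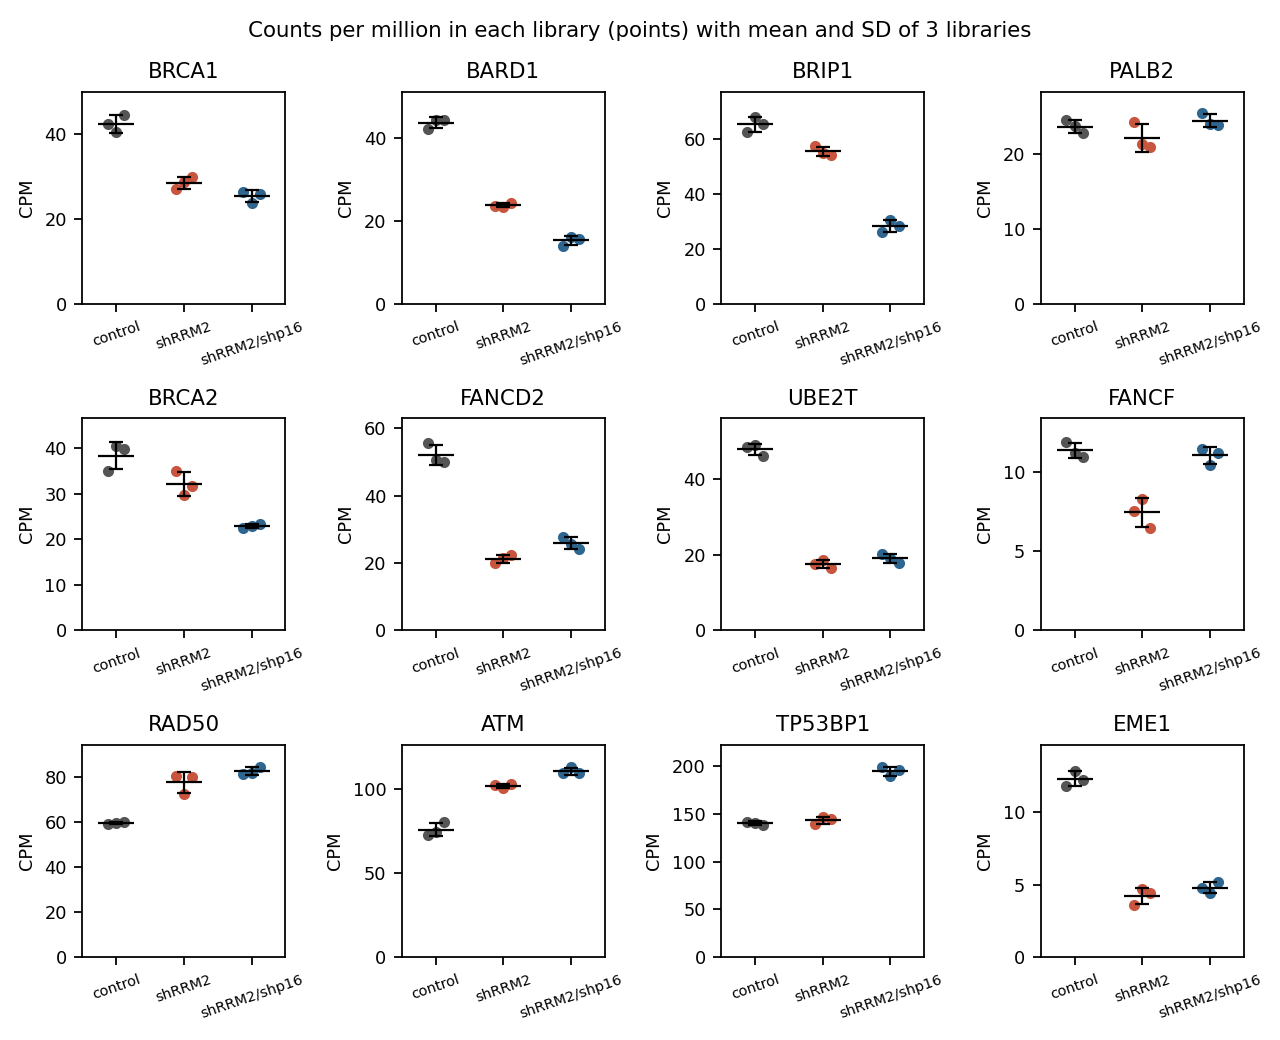
CPM of 12 repair genes in each library (points) with the mean and SD of the 3 libraries of a group (bars), on axes that start at 0. BRCA1, BARD1, BRIP1 and BRCA2 are lowest in shRRM2/shp16, and FANCD2, UBE2T and EME1 are low there too. FANCF is near the control level in shRRM2/shp16, and RAD50, ATM and TP53BP1 are highest in that group.

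RAD51B, RAD51C, RAD51D, XRCC2 and XRCC3 form the paralog complexes of recombination and the RAD54 proteins drive strand exchange. Of these members 7 of 7 were lower in shRRM2 than in control, beside 31.8% of all tested genes. RAD54L (chr1:46247688-46278473), a motor protein that moves along DNA, had 27.0, 28.6 and 29.1 CPM in control, 14.2, 14.5 and 16.1 in shRRM2 and 8.71, 9.31 and 8.76 in shRRM2/shp16. The groups stood apart in 2 clear steps, with log2 fold changes of -0.91 ± 0.07 and -0.74 ± 0.09 (SE, adjusted p = 6.99e-15 and 7.44e-10). At 31.7% of control, RAD54L had the lowest value of any member in shRRM2/shp16 against control. LRRC41 lies opposite 25.1% of its exonic bases.

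RAD54B, its relative, had 6.71, 7.27 and 7.51 CPM in control, 4.19, 5.31 and 4.65 in shRRM2 and 2.43, 3.24 and 3.33 in shRRM2/shp16. The order of the groups was that of RAD54L, at lower read numbers (adjusted p = 0.000146 and 0.000321). It shares 59.1% of its exonic bases with FSBP on the same strand, so its reads cannot be cleanly separated from that gene. XRCC3, a paralog that works with RAD51C, had 13.3, 15.4 and 12.2 CPM in control, 7.17, 5.77 and 6.31 in shRRM2 and 5.39, 7.72 and 6.02 in shRRM2/shp16. All RRM2 hairpin libraries were below the control libraries, and the groups with and without the p16 hairpin overlapped (log2 fold change -1.09 ± 0.11 SE, adjusted p = 3.63e-11 against control). KLC1 covers 76.7% of XRCC3's exonic bases on the opposite strand and the strand setting of the counting is not stated, so this value is uncertain.

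RAD51C, found in both paralog complexes, had 21.2, 20.4 and 20.7 CPM in control, 15.2, 16.6 and 15.1 in shRRM2 and 13.4, 12.7 and 13.4 in shRRM2/shp16. The groups did not overlap and each step was downward (-0.41 ± 0.07 and -0.25 ± 0.08 on the log2 scale, SE, adjusted p = 5.4e-06 and 0.00524). The call between shRRM2/shp16 and shRRM2 was lost with limma on log2 RPKM of all 9 libraries (adjusted p = 0.275, range 0.00245 to 0.275). RAD51D and XRCC2, their partners, moved by -0.44 and -0.60 in shRRM2 and by -0.33 and -0.51 from there to shRRM2/shp16, all past the threshold. RAD51B went the other way in the second comparison. It fell from 6.01 ± 0.224 CPM (SD, n = 3) to 4.27 ± 0.241 in shRRM2 and stood at 5.26 ± 0.248 in shRRM2/shp16, a rise with an adjusted p of 0.0494 that was lost under most alternatives, among them without control replicate a, without shRRM2 replicate a or b and without shRRM2/shp16 replicate a or b (range 0.0117 to 0.146).

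The Fanconi core complex is the ubiquitin ligase of the pathway. Counting the ubiquitin-conjugating enzyme UBE2T, 8 of its 9 members were lower in shRRM2, beside 31.8% of all tested genes. UBE2T (chr1:202331657-202341980), which passes ubiquitin to FANCD2 through FANCL, had 48.5, 48.9 and 46.1 CPM in control, 17.5, 18.7 and 16.5 in shRRM2 and 20.1, 19.2 and 17.7 in shRRM2/shp16. The libraries of both hairpin groups were far below control and overlapped each other. UBE2T fell to 36.7% of control (log2 fold change -1.45 ± 0.06 SE, adjusted p = 1.09e-23), and its difference between the hairpin groups did not pass the threshold (log2 fold change 0.12 ± 0.07 SE, adjusted p = 0.168).

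FANCG, an adaptor of the core complex, had 36.8, 36.5 and 37.7 CPM in control, 15.0, 18.8 and 17.3 in shRRM2 and 16.1, 15.8 and 18.5 in shRRM2/shp16, the same pattern as UBE2T, with 46.2% of control in shRRM2 (log2 fold change -1.11 ± 0.07 SE, adjusted p = 5.77e-18). FANCA, which binds FANCG, had 50.3, 51.9 and 49.6 CPM in control, 27.5, 27.1 and 26.5 in shRRM2 and 22.7, 21.3 and 21.9 in shRRM2/shp16. It stepped down at both stages without overlap (-0.90 ± 0.05 and -0.30 ± 0.06, log2 and SE, adjusted p = 8.33e-19 and 4.5e-05). ZNF276 lies opposite 23.6% of FANCA's exonic bases. FANCB, which holds the catalytic module together, had 10.3, 12.3 and 13.2 CPM in control, 9.90, 8.94 and 8.21 in shRRM2 and 5.39, 4.88 and 6.40 in shRRM2/shp16. The groups did not overlap. It fell to 76.3% of control in shRRM2 (log2 fold change -0.39 ± 0.11 SE, adjusted p = 0.00141) and to 61.6% of the shRRM2 level in shRRM2/shp16 (log2 fold change -0.70 ± 0.12 SE, adjusted p = 3.29e-06). The call in shRRM2 against control was lost with limma on the RPKM values (adjusted p range 0.000125 to 0.2 over all alternatives).

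FANCF and FANCL were lower in shRRM2 than in control, and higher in shRRM2/shp16 than in shRRM2. FANCF (chr11:22622890-22625841), an adaptor for the FANCC and FANCE pair, had 11.9, 11.2 and 11.0 CPM in control, 7.55, 8.31 and 6.48 in shRRM2 and 11.5, 10.5 and 11.2 in shRRM2/shp16. The shRRM2 libraries were lowest, and the other groups overlapped. It fell to 65.4% of control and was 1.48 times higher in shRRM2/shp16 than in shRRM2 (log2 fold change 0.57 ± 0.10 SE, adjusted p = 6.19e-06). That was the highest value of any member in that comparison, and in shRRM2/shp16 FANCF did not differ past the threshold from control (adjusted p = 0.671). FANCL, the subunit with ligase activity, had 9.43, 10.8 and 9.71 CPM in control, 6.60, 6.23 and 6.08 in shRRM2 and 8.19, 6.72 and 8.92 in shRRM2/shp16. Its libraries with both hairpins lay between the other groups, and its rise (log2 fold change 0.33 ± 0.12 SE, adjusted p = 0.0133) lost its call without shRRM2/shp16 replicate c (adjusted p = 0.105, range 0.00205 to 0.105). Against control, FANCL in shRRM2/shp16 lost its call without replicate b (adjusted p = 0.112, range 0.00252 to 0.112). VRK2 and AC007250.1 lie opposite 19.7% of FANCL's exonic bases.

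FANCC and FANCE were lower in shRRM2 (log2 fold changes -0.55 and -0.57), and neither passed the threshold in the second comparison (0.17 and -0.05). FANCC did so without shRRM2 replicate b (adjusted p = 0.0213, range 0.0213 to 0.532). FANCM, the translocase that anchors the complex to DNA, stood at 13.7 ± 1.08 CPM (SD, n = 3) in control, 12.1 ± 0.518 in shRRM2 and 10.1 ± 0.797 in shRRM2/shp16. Its step from shRRM2 to shRRM2/shp16 was downward (adjusted p = 0.0147), a call lost without shRRM2 replicate b (0.0547) or without shRRM2/shp16 replicate a (0.101, range 0.00791 to 0.125).

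FANCD2 and FANCI form the clamp that the core complex ubiquitinates, and both fell by more than 2-fold in shRRM2. FANCD2 (chr3:10026414-10101930) had 55.5, 50.4 and 50.0 CPM in control, 20.0, 21.6 and 22.3 in shRRM2 and 27.7, 25.7 and 24.1 in shRRM2/shp16. FANCI (chr15:89243949-89317261) had 114, 104 and 102 CPM in control, 44.9, 42.7 and 46.8 in shRRM2 and 52.4, 52.8 and 49.0 in shRRM2/shp16. For both genes all libraries with both hairpins lay above all shRRM2 libraries and far below control. FANCD2 fell to 40.9% of control in shRRM2 (log2 fold change -1.29 ± 0.06 SE, adjusted p = 3.24e-22). Its shRRM2/shp16 libraries held 1.21 times the shRRM2 level (adjusted p = 0.000512). FANCI fell to 41.8% (log2 fold change -1.26 ± 0.05 SE, adjusted p = 6.75e-26), and shRRM2/shp16 held 1.15 times the shRRM2 level (adjusted p = 0.000962). Both calls between shRRM2/shp16 and shRRM2 were lost with limma on log2 RPKM of all 9 libraries. The adjusted p was 0.274 for FANCD2 (range 3.78e-05 to 0.274) and 0.172 for FANCI (range 3.18e-05 to 0.172).

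The end resection group trims broken ends, and 4 of its 5 members were lower in shRRM2 while RAD50 was higher. Among all tested genes 31.8% were lower and 29.0% higher than in control. RAD50 (chr5:132556019-132646344), the tethering subunit of the MRN complex, had 59.3, 59.6 and 60.0 CPM in control, 80.5, 72.5 and 80.3 in shRRM2 and 81.7, 81.8 and 84.8 in shRRM2/shp16. Control was lowest in every library (log2 fold change 0.38 ± 0.04 SE, adjusted p = 5.25e-10 in shRRM2), and 79.7% of its exonic bases are shared with the read-through gene AC116366.3 on the same strand, which leaves the split of reads uncertain. The step from shRRM2 to shRRM2/shp16 did not pass the threshold (adjusted p = 0.0641) and did so without control replicate a (0.0445), without shRRM2 replicate a (0.0357) or without shRRM2 replicate c (0.0349), in a range of 0.00243 to 0.439. NBN, the subunit of the same complex that calls in ATM, had 55.5, 59.1 and 51.7 CPM in control, 48.4, 45.7 and 47.1 in shRRM2 and 56.7, 57.5 and 57.4 in shRRM2/shp16. Its shRRM2 libraries were lowest and the other groups overlapped (log2 fold change -0.24 ± 0.05 SE, adjusted p = 5.22e-05 in shRRM2, then 0.28 ± 0.05 with adjusted p = 3.12e-06). The call in shRRM2 was lost with limma on log2 RPKM of all 9 libraries (adjusted p = 0.16, range 2.11e-07 to 0.16).

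EXO1, the exonuclease of long-range resection, fell from 40.3 ± 1.62 CPM (SD, n = 3) to 21.7 ± 1.13 in shRRM2 and to 15.6 ± 0.105 in shRRM2/shp16 (adjusted p = 7.29e-17 and 1.61e-07). DNA2, the nuclease that acts beside it, fell from 20.0 ± 0.621 to 12.7 ± 1.02 and 10.5 ± 0.483, and its second step lost its call without shRRM2 replicate b (adjusted p = 0.0531, range 0.00233 to 0.0531). RBBP8, which encodes CtIP and starts resection, fell from 47.8 ± 0.915 CPM to 33.4 ± 1.17 and stood at 36.8 ± 0.869 with both hairpins. That last rise lost its call without shRRM2 replicate b (adjusted p = 0.113) or without shRRM2/shp16 replicate c (0.0776, range 0.00152 to 0.452).

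The damage signalling genes were mixed. In shRRM2, 4 of 6 tested were lower and ATM higher, beside 31.8% lower and 29.0% higher among all tested genes. From shRRM2 to shRRM2/shp16, 4 were higher and CHEK1 lower, beside 31.9% higher and 29.1% lower among all tested genes. ATM (chr11:108222484-108369102), the kinase that answers double-strand breaks, had 72.7, 74.4 and 80.2 CPM in control, 102, 101 and 103 in shRRM2 and 109.7, 113 and 109 in shRRM2/shp16. The groups formed 3 separate steps upward, with log2 fold changes of 0.43 ± 0.04 and 0.12 ± 0.04 (SE, adjusted p = 1.06e-12 and 0.00817), and ATM had the highest value of any member against control in both hairpin groups. ATR, the kinase that answers stalled forks, had 51.7, 52.4 and 51.2 CPM in control, 47.0, 43.0 and 46.0 in shRRM2 and 50.8, 53.4 and 52.1 in shRRM2/shp16. It dipped in shRRM2 (log2 fold change -0.19 ± 0.05 SE, adjusted p = 0.000645), and its libraries with both hairpins overlapped control (adjusted p = 0.000349 against shRRM2). Under upper-quartile scaling the dip did not pass the threshold (adjusted p = 0.114, range 3.42e-05 to 0.145). AC109992.1 lies opposite 16.4% of ATR's exonic bases.

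ATRIP, the partner that brings ATR to single-stranded DNA, fell from 13.8 ± 1.57 CPM (SD, n = 3) to 8.53 ± 0.994 in shRRM2 and stood at 8.15 ± 0.508 in shRRM2/shp16, with 27.9% of its exonic bases shared with TREX1 on the same strand. CHEK1, the checkpoint kinase downstream of ATR, had 55.9, 56.7 and 61.1 CPM in control, 40.1, 36.5 and 41.4 in shRRM2 and 30.8, 30.5 and 30.9 in shRRM2/shp16. Its groups were apart and in falling order (-0.55 ± 0.05 and -0.36 ± 0.06, log2 and SE, adjusted p = 1.32e-12 and 5.76e-07). CHEK2, the kinase downstream of ATM, had 9.93, 8.38 and 10.3 CPM in control, 6.92, 6.69 and 5.91 in shRRM2 and 8.77, 8.46 and 10.0 in shRRM2/shp16. The shRRM2 libraries were lowest, and those with both hairpins overlapped control (log2 fold change 0.48 ± 0.11 SE, adjusted p = 0.000285 against shRRM2). TP53BP1 (chr15:43403061-43510728), which encodes 53BP1 and protects ends from resection, had 142, 141 and 138 CPM in control, 139, 146 and 144 in shRRM2 and 199, 189.5 and 196 in shRRM2/shp16. Only the libraries with both hairpins stood above the others (log2 fold change 0.44 ± 0.03 SE, adjusted p = 1.2e-15 against shRRM2), while shRRM2 and control overlapped (adjusted p = 0.462). TUBGCP4 lies opposite 28.7% of its exonic bases.

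Genes that resolve joined DNA molecules were lower in 5 of 7 cases in shRRM2 and in 7 of 7 cases in shRRM2/shp16 against control. Among all tested genes 31.8% and 32.4% were lower in these comparisons. EME1 (chr17:50373220-50381483), the partner of the nuclease MUS81, had 11.9, 12.9 and 12.3 CPM in control, 3.62, 4.67 and 4.42 in shRRM2 and 4.75, 4.43 and 5.21 in shRRM2/shp16. Both hairpin groups were far below control and overlapped, and at 34.6% of control EME1 had the lowest value of any member in shRRM2 (log2 fold change -1.53 ± 0.11 SE, adjusted p = 1.4e-15). MUS81 itself had 45.9, 39.4 and 43.1 CPM in control, 30.9, 30.2 and 26.7 in shRRM2 and 36.9, 35.9 and 34.7 in shRRM2/shp16. It fell less, to 68.0% of control (adjusted p = 1.01e-10), and the libraries with both hairpins stood between the other groups (log2 fold change 0.29 ± 0.06 SE, adjusted p = 7.66e-05 against shRRM2). LRRC59 lies opposite 16.4% of EME1's exonic bases, and CFL1 and EFEMP2 lie opposite 14.1% of MUS81's.

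BLM, the helicase that dissolves double Holliday junctions, fell from 23.4 ± 1.80 CPM (SD, n = 3) to 11.3 ± 1.47 in shRRM2 and was 11.6 ± 0.669 in shRRM2/shp16. RMI1, a stabiliser of the BLM complex, fell from 18.0 ± 0.186 CPM to 12.2 ± 0.716, and SLX4, the nuclease scaffold, from 36.6 ± 0.616 to 24.5 ± 1.23, and neither passed the threshold from shRRM2 to shRRM2/shp16 (adjusted p = 0.208 and 0.956). RMI2, the other small subunit, did not pass it in shRRM2 (adjusted p = 0.38) and stood at 68.3% of the shRRM2 level in shRRM2/shp16 (log2 fold change -0.55 ± 0.12 SE, adjusted p = 0.000131). WRN, the Werner syndrome helicase, did not pass it in shRRM2 either (adjusted p = 0.418) and fell from there to shRRM2/shp16 (log2 fold change -0.27 ± 0.07 SE, adjusted p = 0.000955). Against control, WRN in shRRM2/shp16 lost its call without shRRM2/shp16 replicate c (adjusted p = 0.101, range 0.0065 to 0.267). POLQ, the polymerase of theta-mediated end joining, an error-prone alternative to recombination, had 49.8, 53.6 and 52.3 CPM in control, 27.0, 30.9 and 28.1 in shRRM2 and 21.2, 21.7 and 21.2 in shRRM2/shp16. No groups overlapped, and shRRM2/shp16 was lowest (-0.85 ± 0.06 and -0.43 ± 0.06, adjusted p = 1.9e-17 and 1.59e-07).

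**Figure D4:**
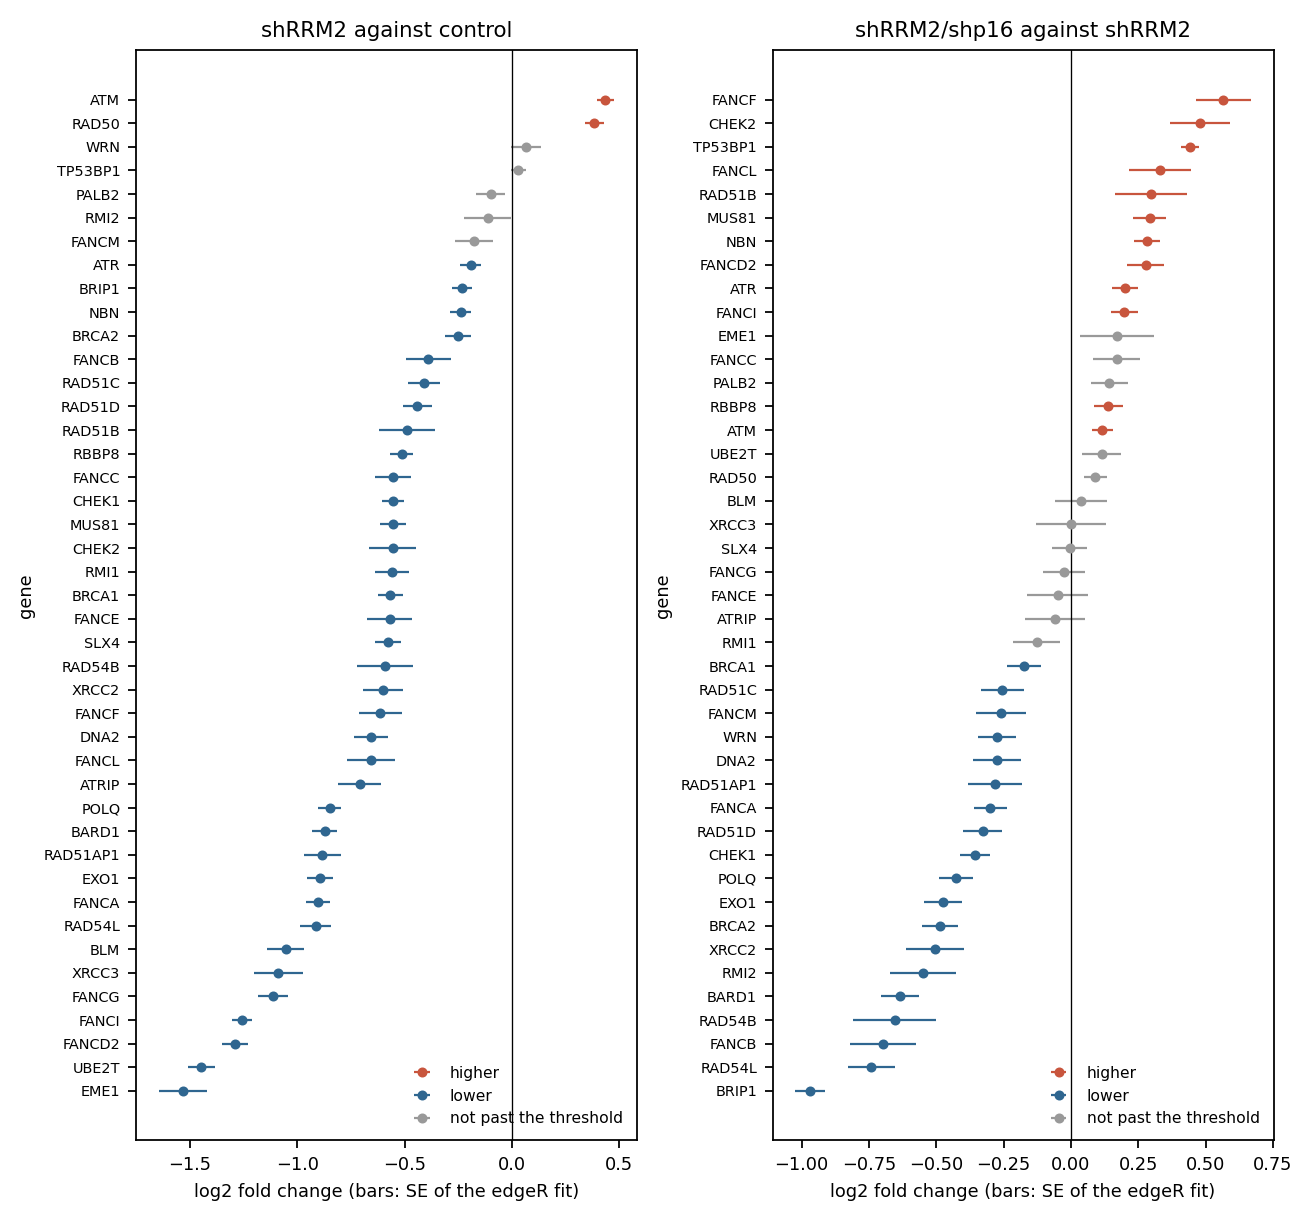
log2 fold changes of the 43 tested repair genes with the SE of the edgeR fit, ordered by size, for shRRM2 against control (left) and shRRM2/shp16 against shRRM2 (right); blue is lower, red higher and grey not past the threshold. EME1 at -1.53 and ATM at 0.43 are the ends on the left, and BRIP1 at -0.97 and FANCF at 0.57 the ends on the right.

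Partners in the same complex did not always keep their proportion. Ratios of CPM were formed for 7 pairs within each library and set to a control mean of 1, a choice of pairs made after the values were seen and given without a test. FANCD2 over FANCI stayed near 1, at 0.978 ± 0.062 (SD, n = 3) in shRRM2 and 1.03 ± 0.047 in shRRM2/shp16. BARD1 over BRCA1 was 0.809 ± 0.031 in shRRM2 and 0.588 ± 0.072 in shRRM2/shp16. BRCA2 over PALB2 was 0.892 ± 0.040 and 0.577 ± 0.031, with the shRRM2 libraries overlapping the control range and the shRRM2/shp16 libraries below it. EME1 over MUS81 was 0.502 ± 0.088 and 0.463 ± 0.049, and ATRIP over ATR 0.706 ± 0.054 and 0.587 ± 0.022. NBN over RAD50 was 0.652 ± 0.024 and 0.743 ± 0.014. RMI2 over RMI1 was above the control range in all shRRM2 libraries (1.36 ± 0.21) and within it with both hairpins (1.01 ± 0.024).

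**Figure D5:**
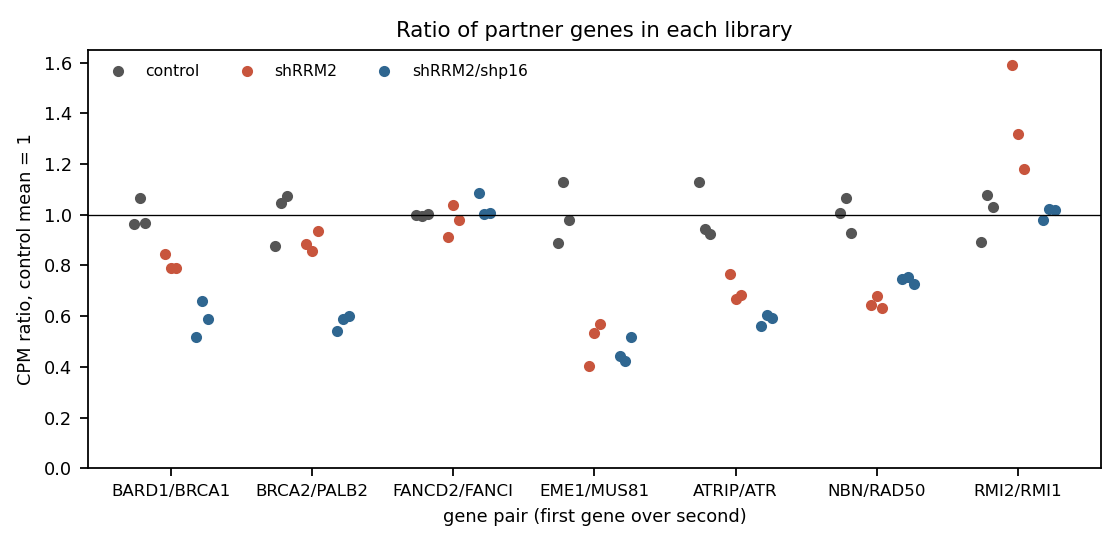
Ratio of the CPM of 2 partner genes in each library (points), with the mean of the 3 control libraries set to 1, for 7 pairs. FANCD2/FANCI is near 1 in all groups, BARD1/BRCA1, EME1/MUS81, ATRIP/ATR and NBN/RAD50 are lower in both hairpin groups, BRCA2/PALB2 is below control in all libraries of shRRM2/shp16, and RMI2/RMI1 is above control in all libraries of shRRM2.

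In a separate list of 58 other genes of these pathways, shRRM2 had 33 lower and 3 higher than control, and their median log2 fold change was -0.27. These are 56.9% and 5.17% of the list, beside 31.8% lower and 29.0% higher among all tested genes. RAD17, counted as not called, has 2 identifiers. The one used has no position in GENCODE 29 and held 5 to 16 counts a library, so nothing is said of its level. The lowest values in shRRM2 were those of H2AFX, the histone variant phosphorylated at breaks (log2 fold change -1.50 ± 0.04 SE, adjusted p = 1.12e-31), PARPBP, an inhibitor of recombination (log2 fold change -1.29 ± 0.11 SE, adjusted p = 4.54e-14), and TIMELESS, a fork protection factor (log2 fold change -1.27 ± 0.05 SE, adjusted p = 1.08e-25). The 3 that rose were REV3L, the catalytic subunit of translesion polymerase zeta (log2 fold change 0.71 ± 0.04 SE, adjusted p = 3.14e-18), BABAM2 of the BRCA1-A complex (log2 fold change 0.38 ± 0.08 SE, adjusted p = 5.13e-05) and EME2, a second partner of MUS81 (log2 fold change 0.26 ± 0.09 SE, adjusted p = 0.00928). From shRRM2 to shRRM2/shp16, 14 of the 58 were higher and 13 lower, which is 24.1% and 22.4%, beside 31.9% and 29.1% of all tested genes.

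Lists of other repair pathways gave these counts and medians for shRRM2 against control. Of 11 tested end joining genes 4 were lower and 2 higher (median -0.09), of 7 mismatch repair genes 3 lower and 1 higher (-0.13), of 18 base excision repair genes 11 lower and 2 higher (-0.39), and of 20 tested nucleotide excision repair genes 6 lower and 7 higher (-0.03). The shares lower were 36.4%, 42.9%, 61.1% and 30.0% in that order, beside 31.8% of all tested genes, and the shares higher 18.2%, 14.3%, 11.1% and 35.0%, beside 29.0%. The end joining and nucleotide excision repair shares lower were thus near that of all genes. GTF2H2, counted among the lower nucleotide excision repair genes, has 3 identifiers, and the one used held 9 to 35 counts a library. From shRRM2 to shRRM2/shp16, 13 of the 18 base excision repair genes were higher and 1 lower (median 0.30), which is 72.2% and 5.56%, beside 31.9% and 29.1% of all tested genes. POLB, the polymerase that fills the gap, was among those that rose (log2 fold change 0.93 ± 0.08 SE, adjusted p = 3.87e-14). Whether these lists differ from the recombination genes was not tested.

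Genes of proliferation also fell in shRRM2. Of 18 in the list, 17 fell, while CCNE2, which encodes cyclin E2, rose, and the median was -1.25, where 31.8% of all tested genes were lower and 29.0% higher. Their summed level was 3506 to 3589 CPM in control, 1319 to 1348 in shRRM2 and 1562 to 1592 in shRRM2/shp16. MKI67, which encodes the Ki-67 antigen of cycling cells, had 1042, 1019 and 1046 CPM in control, 309, 317 and 339.5 in shRRM2 and 392, 377 and 399 in shRRM2/shp16. It fell to 31.1% of control in shRRM2 and was 1.21 times higher in shRRM2/shp16 than in shRRM2 (adjusted p = 1.18e-37 and 1.38e-10). Of the 18 genes, 8 were higher and 7 lower from shRRM2 to shRRM2/shp16, beside 31.9% and 29.1% of all tested genes. The part of proliferation, and of the higher RRM2 level in shRRM2/shp16, in the values of the repair genes was not tested.

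The authors' deposited table gives its own log2 fold changes of shRRM2/shp16 over shRRM2, and it marks 6 of the 43 tested members significant. Of the 16561 genes tested here, 4723 (28.5%) are marked in the authors' deposited table. In the authors' deposited table BARD1 (-1.80), BRIP1 (-1.04), RMI2 (-0.55) and XRCC2 (-0.54) were lower and CHEK2 (0.58) and FANCF (0.56) higher. The sign in the authors' deposited table was opposite to that of the fit on the counts for 7 of the 43 members, beside 10.6% of all tested genes. Of these 7, 3 were called in the fit, and the authors' deposited table gives them unmarked: BRCA1 (0.15), FANCD2 (-0.08) and FANCI (-0.09). The other 4, XRCC3, FANCG, RAD50 and EME1, were not called in the fit and are unmarked in the authors' deposited table.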

How the data were processed

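RNA was measured in 9 IMR90 libraries. The authors deposited 1 file of raw read counts a library, by Ensembl gene, in the layout of HTSeq. The submitters' processing notes name TopHat2 2.0.9, Cufflinks 2.0.2, Cuffdiff and GRCh38, with no role or order, and the annotation release and strand setting are not given in the sources used here. The authors also deposited a table of log2 RPKM values per library, on a scale of log2(x + 1) with x in reads per base, and of their own log2 fold changes of shRRM2/shp16 over shRRM2 with q-values, according to the headers the authors deposited. The shRRM2 replicate c column of log2 RPKM does not match its counts (0.701% of genes within 1 in 1000, where the other 8 columns matched at 100.0%). 0 columns of per-sample values matched no sample.

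Genes were kept by filterByExpr (16561 genes, 99.8% of counts), scaled by TMM and tested with edgeR 4.0.16 in R 4.3.3. The quasi-likelihood fit (glmQLFit, glmQLFTest) held all 9 libraries, with 1 term for each group, which left 6 residual degrees of freedom. Tests were two-sided, with Benjamini-Hochberg adjustment over all tested genes of each comparison and a threshold of 0.05. The code was tested on simulated counts for shRRM2 against control. It recovered 35 of 66 changes of 0.5 on the log2 scale, 50 of 65 of 1.0 and 66 of 67 of 2.0. There were 8 false calls among 16164 tested genes. The simulation changed 200 genes, far fewer than were called in the data, so these rates need not hold for the reported tests. The closing tally lines were not used as genes. Ambiguous reads were 3.74% to 6.02% of uniquely aligned reads. Positions and exon overlaps came from GENCODE 29 on GRCh38, and promoter windows from RefSeq GRCh38.p14. Read counts without molecular identifiers are not independent molecules.

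The members and lists were chosen with earlier results of these data known. Values in every library were set to be given for 13 chosen genes, for the 6 lowest and 6 highest called in shRRM2 against control and for the 4 lowest and 4 highest called in shRRM2/shp16 against shRRM2. Of the other pathway genes, the 3 lowest and 3 highest called were to be named, and 1 further gene set by the rule is not reported here. Alternatives were RLE, upper-quartile and total-count scaling, DESeq2 1.42.0, other low-count filters, the 6 libraries compared alone, a replicate block, limma 3.58.1 on log2 RPKM or on RPKM with a pseudocount of 0.1, and each library left out.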

Additional observations from a re-analysis of the deposited data

How the results depend on the processing

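No alternative reversed the sign of a called member. In shRRM2 against control, leaving out each of the 9 libraries in turn gave 2 higher and 36 lower every time. In each comparison, libraries of the group not compared enter only through the shared filter, scaling and estimate of spread. Upper-quartile scaling gave 4 members higher in place of 2. In shRRM2/shp16 against control, scaling by library totals, which moved the median of all genes by 0.10 on the log2 scale, gave 6 members higher in place of 3, and leaving out a library gave 3 higher and 33 to 34 lower. In shRRM2/shp16 against shRRM2 the leave-one-out counts were 10 to 13 higher and 17 to 19 lower, and DESeq2 gave 9 higher and 19 lower. Over all count-based alternatives, calls changed for 3 members in the first comparison, 11 in the second and 5 in the third, in the order of the report. On the RPKM values, limma called 31 to 33 members lower in shRRM2 against control. Those no longer called in some or all of these fits were BRCA2, FANCB, ATR, BRIP1 and NBN.

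The labels do not say whether replicate letters pair libraries of different groups. Same-letter libraries of 2 groups had correlations of their deviations from the group means between -0.02 and 0.05. For different letters the correlations were -0.05 to 0.04, and such values cannot exclude a shared culture or infection. With the letter as a replicate block, the first comparison gave 2 members higher and 36 lower, the second 11 higher and 19 lower (RAD51B was not called, adjusted p = 0.0574), and the third 3 higher and 34 lower. Members such as RAD54B, with 46 to 160 counts a library, carry more counting error than members with more counts.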
